A study of Apis mellifera with 96 samples.

Results

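Whole worker bees of the honey bee (Apis mellifera) that came from origin colony 109 were set against workers of colonies 107, 115, 122, 127 and 137. The libraries were chosen by the colony number in their titles. Colony 109 gave 16 of the 92 libraries compared and the other 5 colonies gave 76. The 16 libraries of colony 109 were 4 each of foragers at day 7, nurses at day 7, foragers at day 26 and nurses at day 26. Within a group they were replicates 1, 2 and 3 and a library labelled 3#2, here called the second library of replicate 3, and single values are given in that order. The other colonies held 18 forager and 18 nurse libraries at day 7, and 20 of each role at day 26. All bees were labelled wild type and untreated. Adults 1 day old had been spread over 3 nuclear hives with queens and honey frames, and nurses and foragers were taken on day 7 or day 26 and put on dry ice. Libraries were prepared together from whole-bee total RNA by TagSeq, in which a short stretch close to the 3′ end of a transcript is sequenced. Age, date of capture and time spent in the hive cannot be told apart. Whether a library held a single bee or a pool is not stated in the labels, so p-values measure the spread between libraries, which may in part be technical. A colony was sampled as a single family, so each result below is about colony 109 and not about a class of colonies.

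The workers of a honey bee colony are daughters of the same queen, fathered by several drones, and so they share a maternal lineage while their fathers differ. Mitochondrial genomes pass through the mother, so daughters of the same queen inherit their mitochondrially encoded genes from her. Whether the levels of the transcripts follow this descent was not tested. The mitochondrially encoded genes give subunits of the respiratory chain complexes and of ATP synthase. The nuclear genome encodes the rest of those complexes. Nurses feed brood with secretions of head glands that are rich in royal jelly proteins, while foragers fly out for nectar and pollen.

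Libraries of colony 109 held 355499 to 2285200 counts on genes, against 197805 to 2300891 in the other colonies. Mean totals were 1350276 ± 534630 in colony 109 and 1314555 ± 381146 in the other colonies (SD, n = 16 and 76). The totals did not differ by more than their spread (two-sided permutation test within role and day, p = 0.749, Benjamini-Hochberg adjusted over 3 library measures 0.83). The share of reads not aligned was 67.6 ± 4.30% in colony 109 and 67.8 ± 4.22% in the others (permutation p = 0.83, adjusted 0.83). Of the 18 tissue markers looked for, 16 had counts in every library of colony 109, and none was called different between colony 109 and the others. The exceptions were Pla2, a venom gland enzyme found in 14 of the 16 libraries, and Vhdl, a lipoprotein found in 15. Some libraries of colony 109 stood apart. The second library of replicate 3 of foragers at day 26 had the lowest total of the colony (355499) and 78.6% of its reads were not aligned, against 69.5% to 70.0% in the other libraries of its group. Replicate 3 of foragers at day 7 had relative levels of the 13 mitochondrially encoded genes nearest to colony 107, while the other 15 libraries of colony 109 were nearest to their own colony. Assignment by these genes was less sharp elsewhere: only 7 of 15 libraries of colony 107 and 8 of 16 of colony 122 were nearest to their own colony, and 3 libraries of colony 127 were nearest to 109. Nurse replicate 3 at day 7 held low levels of some genes expressed in the head but not of others. Its Lop1, a long-wavelength opsin of the eye, stood at 5.66 CPM (counts scaled to a common library total), against 87.6 to 146 CPM in the other 3 libraries of its group. Its Mrjp1 stood at 2935 CPM, against 40367 to 103440.0 CPM. Its Mrjp2 and Mrjp3 stood at 1623 and 609 CPM, against 15607.5 to 62188 and 9775 to 28177 CPM. Its Blop, another opsin, stood at 1.13 CPM, against 10.7 to 15.5 CPM. Its Uvop, another opsin of the eye, stood near the other libraries at 18.1 CPM, against 18.4 to 24.1 CPM. Its Obp4, an odorant carrier of the antennae, stood at 266 CPM, against 206 to 354 CPM. Its Obp1 and Obp2, of the same family, stood at 2.26 and 4.52 CPM, against 0.671 to 56.6 and 8.05 to 95.4 CPM. In whole bees, a smaller tissue and less RNA per cell cannot be told apart.

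Across the 4 groups of role and day, 154 of 6753 genes tested (2.28%) passed an adjusted p of 0.05 between colony 109 and the other colonies by edgeR's quasi-likelihood test, 76 higher (1.13%) and 78 lower (1.16%) in colony 109. Most differences were small. The median called fold was 1.33, 115 of the 154 lay under 1.5-fold and 17 lay over 2-fold, 10 higher and 7 lower in colony 109. The median log2 fold change over all genes tested was 0.00651. The direction was shared by the 4 groups for 121 of the 154 called genes (78.6%), against 17.8% of all genes tested. Colony 109 was the highest or the lowest of the 6 colonies for 146 of the 154 (94.8%), against 32.4% of all tested. These shares describe the called genes, since the call rests on the same values. No gene separated all 16 libraries of colony 109 from all 76 others. The same contrast for each other colony called 561 genes for 107 (8.31%), 470 for 137 (6.96%), 130 for 127 (1.93%), 90 for 115 (1.33%) and 75 for 122 (1.11%). The count depended strongly on how many libraries entered. Without the second libraries of all colonies 35 genes were called, 34 of them among the 154, and with counts summed per group 32 (29 shared). Without replicate 3 of all colonies 17 were called (13 shared), and in colony 109 this setting also takes out the second library of each group. Without the shallow forager library at day 26, 103 genes were called for colony 109, 97 of them among the 154, and 46 were higher. Without it and the forager library at day 7 of another mitochondrial profile, 108 were called, 90 of them shared.

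**Figure D1:**
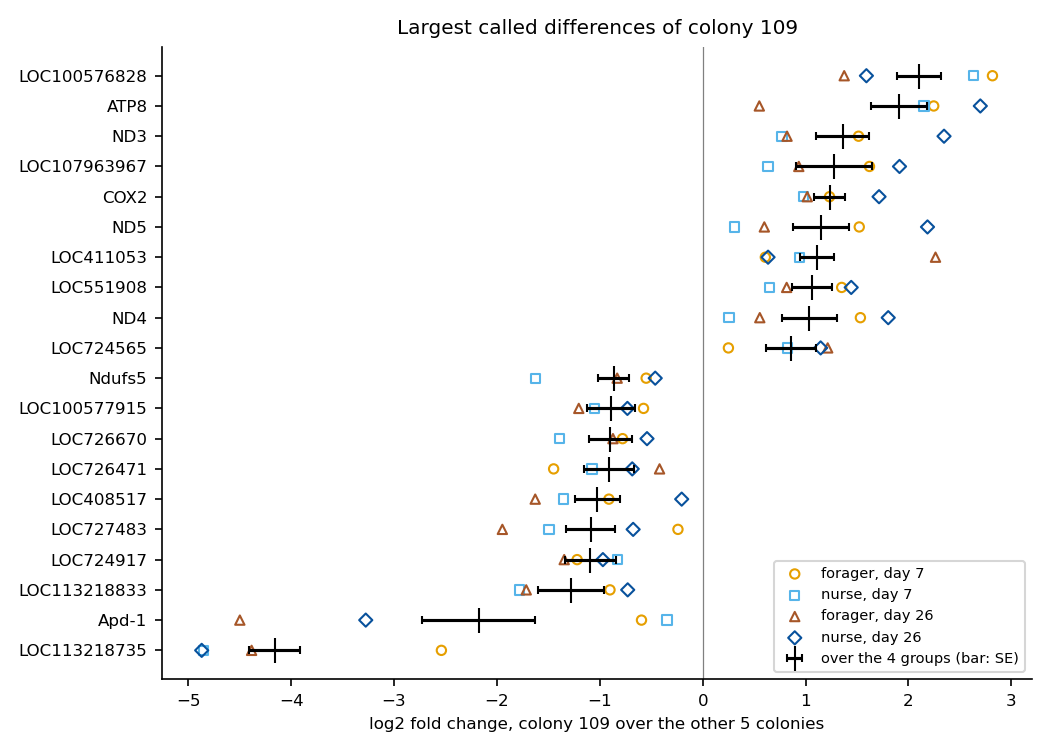
Log2 fold change of colony 109 over the other 5 colonies (x axis) for the 10 genes with the largest rise and the 10 with the largest fall that had the same sign in the 4 groups (y axis). Open symbols are the 4 groups of role and day, black ticks the value over the 4 groups with its SE. LOC113218735 (-4.16) lies far from the rest, and among the rises LOC100576828 (2.10) and ATP8 (1.91) lead.

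The largest difference of colony 109 was in LOC113218735, a protein-coding gene for which the table of gene names at hand gives no further name. At day 7, LOC113218735 stood in foragers at 348, 389, 5184 and 228 CPM in colony 109, against 2628 to 14744 (median 9044) CPM in the other colonies. Nurses at day 7 had 709, 419.6, 258 and 204 CPM in colony 109, against 4699 to 18937 (median 12072) CPM in the others. Apart from forager replicate 3, every library of colony 109 at day 7 lay below every library of the other colonies in its role. At day 26, foragers of colony 109 had 94.9, 106, 298 and 181 CPM, against 1968 to 14925 (median 3063) CPM in the other colonies. Nurses at day 26 had 105, 153, 102 and 101 CPM in colony 109, against 2149 to 4904 (median 3268) CPM in the others. The groups did not overlap at day 26 in either role. In all, 15 of the 16 libraries of colony 109 lay below all others of their role and day. The gene fell in colony 109 with a log2 fold change of -4.16 ± 0.25 (adjusted p = 1.55e-22, edgeR quasi-likelihood). Against the single colonies the change lay between -4.02 (107) and -4.31 (137). The exception, forager replicate 3 at day 7, is the library whose mitochondrial profile was nearest to colony 107. Without that library the log2 fold change was -4.72, adjusted p = 4.93e-33.

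COX2, the mitochondrial gene for subunit 2 of cytochrome c oxidase, moved the other way. Foragers at day 7 had 26854, 25305, 6897 and 18564 CPM in colony 109, against 1352 to 18445 (median 9271) CPM in the other colonies. In nurses at day 7, COX2 was at 32994, 30763, 19535 and 15519.8 CPM in colony 109, against 1839 to 24006 (median 14724) CPM. The day 7 groups overlapped, with forager replicate 3 the lowest of colony 109. Foragers at day 26 had 7224, 9581, 9383 and 9176 CPM in colony 109, against 1107 to 16470.0 (median 4014) CPM in the other colonies, the top of which was a single library of colony 115. Nurses at day 26 had 8843, 16206, 10323 and 9281 CPM in colony 109, against 1219 to 5603 (median 3954) CPM, and here the groups did not overlap. Over the 4 groups, 9 of the 16 libraries of colony 109 lay above all others of their role and day. COX2 rose with a log2 fold change of 1.24 ± 0.15 (adjusted p = 1.21e-08) and was higher in colony 109 than in each other colony, by 0.78 (137) to 2.15 (115) on the log2 scale. All 5 of these differences passed, and they share the libraries of colony 109.

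The ratio of the 2 genes set the libraries apart more sharply than either level. LOC113218735 counts divided by COX2 counts gave 0.00947 to 0.0318 in 15 libraries of colony 109 and 0.752 in forager replicate 3 at day 7. In the 76 libraries of the other colonies the ratio lay between 0.683 and 2.88 (median 0.815). The range of those 15 libraries and the range of the other colonies did not overlap, while forager replicate 3 lay inside the range of the others. COX2 divided by COX1, both mitochondrial genes of cytochrome c oxidase, gave 0.506 to 1.16 in the same 15 libraries and 0.387 in forager replicate 3, against 0.141 to 0.561 in the other colonies. These ratios compare libraries, not the abundance of the genes, since tags carry no length scale. The sum of both genes averaged 16583 ± 8639 CPM in colony 109 and 14367 ± 10138 CPM in the others (SD, n = 16 and 76), with colony means of 9848 CPM in colony 115 to 19609 CPM in colony 137. By group it averaged 20942 CPM in foragers at day 7 in colony 109, against 18392 CPM in the others, and 25101 CPM in nurses at day 7 in colony 109, against 25342 CPM in the others. At day 26 foragers averaged 9011 CPM in colony 109 and 8137 CPM in the others, and nurses 11278 CPM in colony 109 and 7098 CPM in the others. The ratios and the sum were chosen after the values of both genes had been seen, and the ratios were not tested. On the log2 scale the sum was higher in colony 109 by 0.37 (two-sided permutation test within role and day, p = 0.0348, not adjusted). As the sum was chosen from these same values, this p only describes them. How the reads of the 2 genes were told apart by the counting was not tested.

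**Figure D2:**
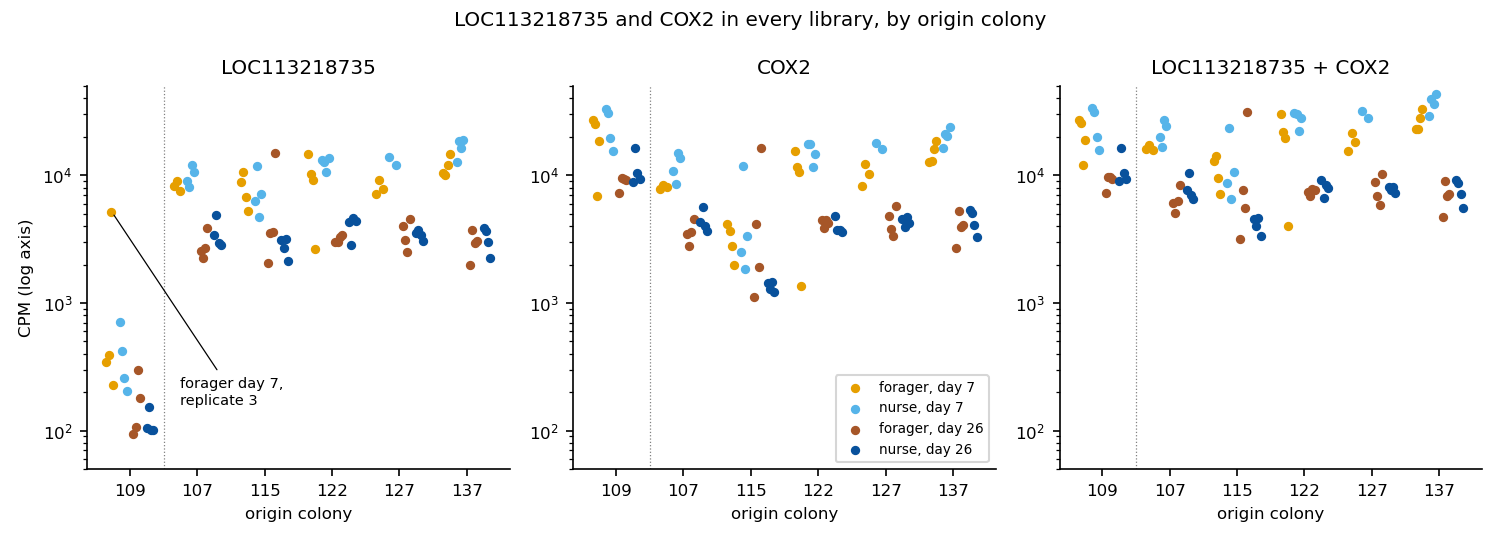
CPM on a log axis for LOC113218735 (left), COX2 (middle) and their sum (right) in each library, by origin colony with 109 at the left, coloured by role and day. In the left plot 15 libraries of colony 109 lie between 94.9 and 709 CPM, below every library of the other colonies (1968 or more), and forager replicate 3 at day 7 lies at 5184.

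Of the 13 mitochondrially encoded genes, 5 rose in colony 109 and 0 fell, against 1.13% and 1.16% of all genes tested, with a median log2 fold change of 0.77, against 0.0065 over all genes tested. Besides COX2, the genes that rose were ATP8, a subunit of ATP synthase (1.91 ± 0.27, adjusted p = 1.22e-06), and ND3, ND5 and ND4, subunits of complex I. Log2 fold changes were 1.36 ± 0.26 for ND3 (adjusted p = 0.000762), 1.15 ± 0.27 for ND5 (adjusted p = 0.00880) and 1.04 ± 0.27 for ND4 (adjusted p = 0.0215). ATP8 was at 173, 96.0, 245 and 66.7 CPM in nurses of colony 109 at day 7, against 0 to 93.6 (median 36.7) CPM in the other colonies. In nurses at day 26 it was at 102, 123, 219 and 231 CPM, against 0.465 to 139 (median 52.6) CPM. All 8 nurse libraries of colony 109 lay above the median of the others, with overlap on both days. Foragers of colony 109 had 191, 86.0, 23.3 and 109 CPM at day 7 and 59.6, 109, 68.6 and 41.4 CPM at day 26, against 0 to 104 (median 43.5) and 0 to 156 (median 39.4) CPM in the others. Complex I subunit ND5 ranged from 633 to 2033 CPM in colony 109 and from 8.79 to 2428 CPM in the others.

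The low end of the other colonies came from colony 115. Against colony 115 alone, log2 fold changes of colony 109 were 5.10 for ATP8, 4.38 for ND3, 3.84 for ND5, 3.56 for ND4 and 3.39 for COX3, all of which passed. Against colonies 107, 122, 127 and 137, ND3, ND5 and ND4 differed by 0.18 to 1.01, and none of these 12 differences passed. ATP8 passed against 107 (1.26, adjusted p = 0.0498) and 137 (1.25, adjusted p = 0.0347). It did not pass against 122 (0.87, adjusted p = 0.235) or 127 (1.08, adjusted p = 0.128). With colony 115 left out, 4 of the 5 genes remained called: COX2 (1.01, adjusted p = 2.84e-09), ATP8 (1.11, adjusted p = 0.00186), ND3 (0.61, adjusted p = 0.0257) and ND5 (0.48, adjusted p = 0.0369). ND4 had 0.40, adjusted p = 0.121 and did not pass. ND4 also lost its call without replicate 2 of nurses at day 7 (0.95, adjusted p = 0.0525) or at day 26 (0.95, adjusted p = 0.0580). ND3, ND5 and ND4 lost their calls in the additive model, with counts summed per group and without replicate 3 of all colonies. ND5 and ND4 also lost theirs without replicate 1 of all colonies. ATP8 lost its call only with counts summed per group (adjusted p = 0.206). Of the 5 genes only COX2 kept its call in all 35 settings. The other 8 mitochondrial genes did not pass with all 5 colonies in. They were CYTB of complex III (0.69 ± 0.22, adjusted p = 0.0738), ND4L (0.83 ± 0.26, adjusted p = 0.0738), ATP6 (0.77 ± 0.26, adjusted p = 0.0990), ND1 (0.56 ± 0.27), COX3 (0.32 ± 0.31), ND6 (0.30 ± 0.20), COX1 (0.051 ± 0.11) and ND2 (0.045 ± 0.12). The share of all counts on mitochondrial genes was 5.87 ± 2.01% in colony 109 and 4.73 ± 2.64% in the others (SD, n = 16 and 76). It differed with p = 0.0358 by the permutation test and did not pass after adjustment over 3 library measures (0.107).

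**Figure D3:**
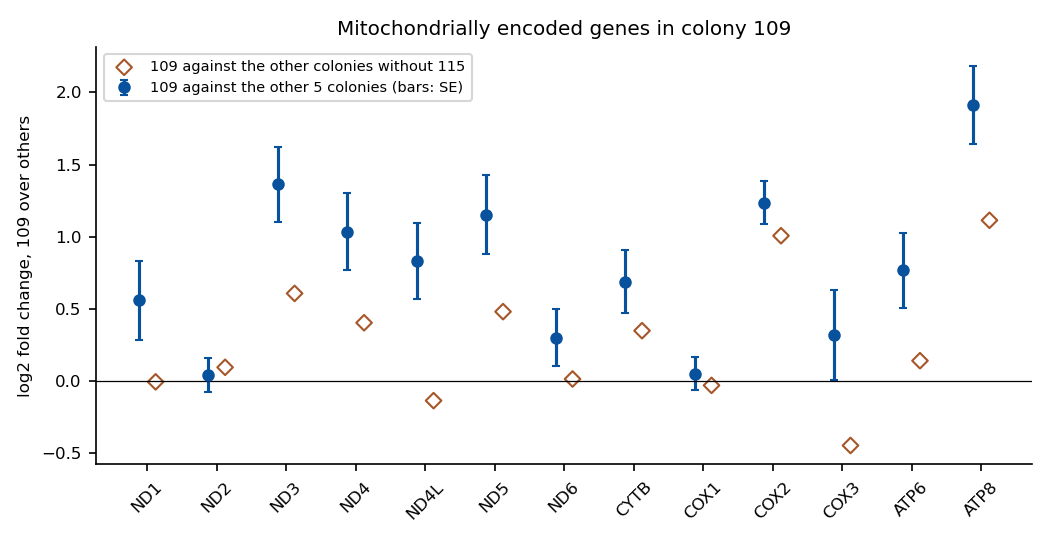
Log2 fold change of colony 109 over the other colonies (y axis) for the 13 mitochondrially encoded genes (x axis), with all 5 other colonies (filled, bars are SE) and without colony 115 (open, no error drawn). COX2 changes little between the settings (1.24 and 1.01), while COX3 has 0.32 with colony 115 and -0.45 without it.

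Among nuclear genes the largest rise was in LOC100576828, which like the other genes named here only by an LOC number has no product name in the sources used. At day 7 it was at 103, 72.2, 8.72 and 63.6 CPM in foragers of colony 109, against 1.26 to 23.7 (median 8.42) CPM in the other colonies. Nurses at day 7 had 15.4, 86.8, 70.1 and 41.1 CPM, against 0 to 22.4 (median 6.82) CPM. Of these 8 libraries, 6 lay above every library of the others, and forager replicate 3 and nurse replicate 1 lay among them. At day 26 the values of colony 109 were spread, with 72.1, 12.3, 14.4 and 5.17 CPM in foragers and 6.61, 53.5, 83.6 and 21.6 CPM in nurses. The other colonies had 3.12 to 36.3 (median 8.97) CPM in foragers and 1.95 to 74.0 (median 11.3) CPM in nurses, so the groups overlapped. The log2 fold change over the 4 groups was 2.10 ± 0.21 (adjusted p = 3.10e-11), and colony 109 was higher than each of the 5 colonies, by 1.19 (127) to 2.65 (107). LOC551908 rose by 1.06 ± 0.20 on the log2 scale (adjusted p = 0.000416), with means of 27.7 ± 10.3 CPM in colony 109 and 13.7 ± 8.00 CPM in the other colonies (SD, n = 16 and 76). LOC411053 rose by 1.11 ± 0.17 (adjusted p = 7.98e-06), and its highest value by far was 6160 CPM in the shallow forager library at day 26, against 691 to 1206 CPM in the other 3 libraries of that group. Without that library its change was 0.79, adjusted p = 0.00160. LOC107963967 (1.28 ± 0.37, adjusted p = 0.0480) and LOC724565 (0.86 ± 0.25, adjusted p = 0.0437) passed narrowly. Against single colonies LOC107963967 passed for 107 and 137. It did not pass for 115 (0.40, adjusted p = 0.818), 122 (-0.16, adjusted p = 0.920) or 127 (0.43, adjusted p = 0.752). LOC724565 passed for 107, 127 and 137. It did not pass for 115 (-0.40, adjusted p = 0.672) or 122 (0.83, adjusted p = 0.205). Colony 109 was thus not above 122 for LOC107963967 or above 115 for LOC724565. LOC107963967 lost its call in 20 of 35 other settings and LOC724565 in 23. LOC113218812, chosen because its call held in every setting, had 131 ± 47.8 CPM in colony 109 and 96.9 ± 29.8 CPM in the other colonies and a log2 fold change of 0.46 ± 0.089 (adjusted p = 0.000986).

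GstS1, a sigma-class glutathione transferase of the detoxification enzymes, was the gene with a name of its own and the smallest adjusted p among the nuclear genes that rose. Day 26 foragers of colony 109 had 497, 398, 498 and 501 CPM, against 157 to 411 (median 271) CPM in the other colonies, and 3 of the 4 libraries lay above all others. Nurses at day 7 had 304, 376, 374 and 309 CPM, against 170.1 to 348 (median 242) CPM, and here 2 of 4 lay above all others. Foragers at day 7 (281, 226, 257 and 473 CPM, against 167 to 380.4 (median 244) CPM) and nurses at day 26 (344, 247, 302 and 333 CPM, against 180.2 to 457 (median 275) CPM) overlapped more. The change was modest, 0.44 ± 0.077 on the log2 scale (adjusted p = 0.000191), with means of 358 ± 93.1 CPM in colony 109 and 265 ± 66.4 CPM in the other colonies (SD, n = 16 and 76). Against single colonies it passed for 107, 122, 127 and 137 and not for 115 (0.29, adjusted p = 0.181). GstS1 was the only called gene among the 7 of the detoxification list that were tested (2.28% of all genes tested were called). All 7 had positive log2 fold changes, with a median of 0.093. The list of heat shock proteins (4 tested, none called) was also positive throughout, with a median of 0.10. Cryl1, named for the crystallin lambda protein, rose by 0.34 ± 0.082 (adjusted p = 0.00880), with means of 1246 ± 354 CPM in colony 109 and 987 ± 188 CPM in the other colonies. Without the shallow library its change was 0.28, adjusted p = 0.0572, and without nurse replicate 3 at day 7 it was 0.26, adjusted p = 0.0750, and neither passed.

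Among the genes that fell, Ndufs5 encodes a nuclear subunit of complex I. At day 7 it was at 1063, 728, 681 and 614 CPM in foragers and 152, 1021, 138 and 554 CPM in nurses of colony 109. The other colonies had 448 to 2058 (median 1089.7) CPM in foragers and 375 to 2693 (median 1480.2) CPM in nurses. Nurse replicates 1 and 3 lay below every library of the other colonies, and the other 2 nurse libraries lay within their range. At day 26 foragers of colony 109 had 724, 596, 537 and 701 CPM, against 616 to 1686 (median 1158) CPM, and nurses had 132, 1101, 735 and 1012 CPM, against 571 to 1402 (median 1061) CPM. Nurse replicate 1 at day 26 was again far below the rest. In these 3 nurse libraries Ndufs5 was at 132 to 152 CPM, and in the other 13 libraries of colony 109 at 537 to 1101 CPM. The gene fell by 0.87 on the log2 scale, with an SE of 0.15 (adjusted p = 0.000293). Against single colonies it passed for 122, 127 and 137. It did not pass for 107 (-0.47, adjusted p = 0.166) or 115 (-0.63, adjusted p = 0.0866). Ndufs5 was the only called gene of the 8 tested on the list of nuclear oxidative phosphorylation genes. All 8 had negative log2 fold changes, with a median of -0.23 and a range of -0.87 to -0.12, against a median of 0.0065 over all genes tested. The list of ribosomal proteins (7 tested, none called) was also negative throughout, from -0.17 to -0.0011.

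Apidermins are cuticle proteins of the honey bee, and 2 of them passed as lower in colony 109 over the 4 groups, with their low values at day 26. Apd-1 was at 0.735, 0, 0.602 and 0 CPM in foragers and 0.551, 0, 0.580 and 0.423 CPM in nurses of colony 109 at day 26. The other colonies had 0 to 1068 (median 3.44) CPM in foragers and 0 to 17.5 (median 4.68) CPM in nurses. Each of the 8 values of colony 109 stood for 1 count or none, and the groups overlapped since some other libraries also had none. At day 7 it was at 42.6, 326, 105 and 239 CPM in foragers and 391, 589, 311 and 616 CPM in nurses of colony 109. The others had 40.2 to 717 (median 192) CPM in foragers and 74.2 to 1109 (median 608) CPM in nurses, so the ranges overlapped widely. Apd-3 showed the same order, with 0 to 5.17 CPM in the 8 libraries of colony 109 at day 26, against 1.14 to 1362 CPM in foragers and 3.90 to 138 CPM in nurses of the other colonies. At day 7 Apd-3 was at 64.8, 427, 321 and 1061 CPM in foragers of colony 109, against 35.2 to 1467 (median 269) CPM in the others. Nurses at day 7 had 701, 1718, 613 and 233 CPM in colony 109, against 16.5 to 2405 (median 783) CPM. These ranges overlapped, and the log2 fold changes of Apd-3 at day 7 were 0.31 in foragers and -0.23 in nurses. Neither group at day 26 passed alone for Apd-1 (adjusted p = 0.0727 in foragers and 0.817 in nurses) or for Apd-3 (adjusted p = 0.0815 in foragers and 0.670 in nurses). Over the 4 groups the log2 fold change was -2.18 ± 0.55 for Apd-1 (adjusted p = 0.0155) and -1.96 ± 0.56 for Apd-3 (adjusted p = 0.0440). With so few counts at day 26 these fitted values depend on the prior count. The upper end among foragers at day 26 was 1 library of colony 115, which also held the highest COX2 of its group. With colony 115 left out, both kept their call (adjusted p = 0.00454 for Apd-1 and 0.0225 for Apd-3). Against colony 122 alone neither passed (-1.15, adjusted p = 0.528 for Apd-1 and -0.94, adjusted p = 0.571 for Apd-3). Apd-1 passed against 107, 115 and 127 and not against 137 (adjusted p = 0.0786). Apd-3 passed against 127 and 137 and not against 107 (adjusted p = 0.0744) or 115 (adjusted p = 0.0599). Apd-1 lost its call in 5 of 35 settings, among them the fits without replicate 2 and without replicate 3 of all colonies. Apd-3 lost its call in 24 of 35 settings, 12 of them fits without a single library of colony 109. Apd-1 and Apd-3 were the called genes among the 9 cuticle genes tested, against 1.16% of all genes tested that were lower, and the list's median log2 fold change was -0.34, with 8 of the 9 negative.

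**Figure D4:**
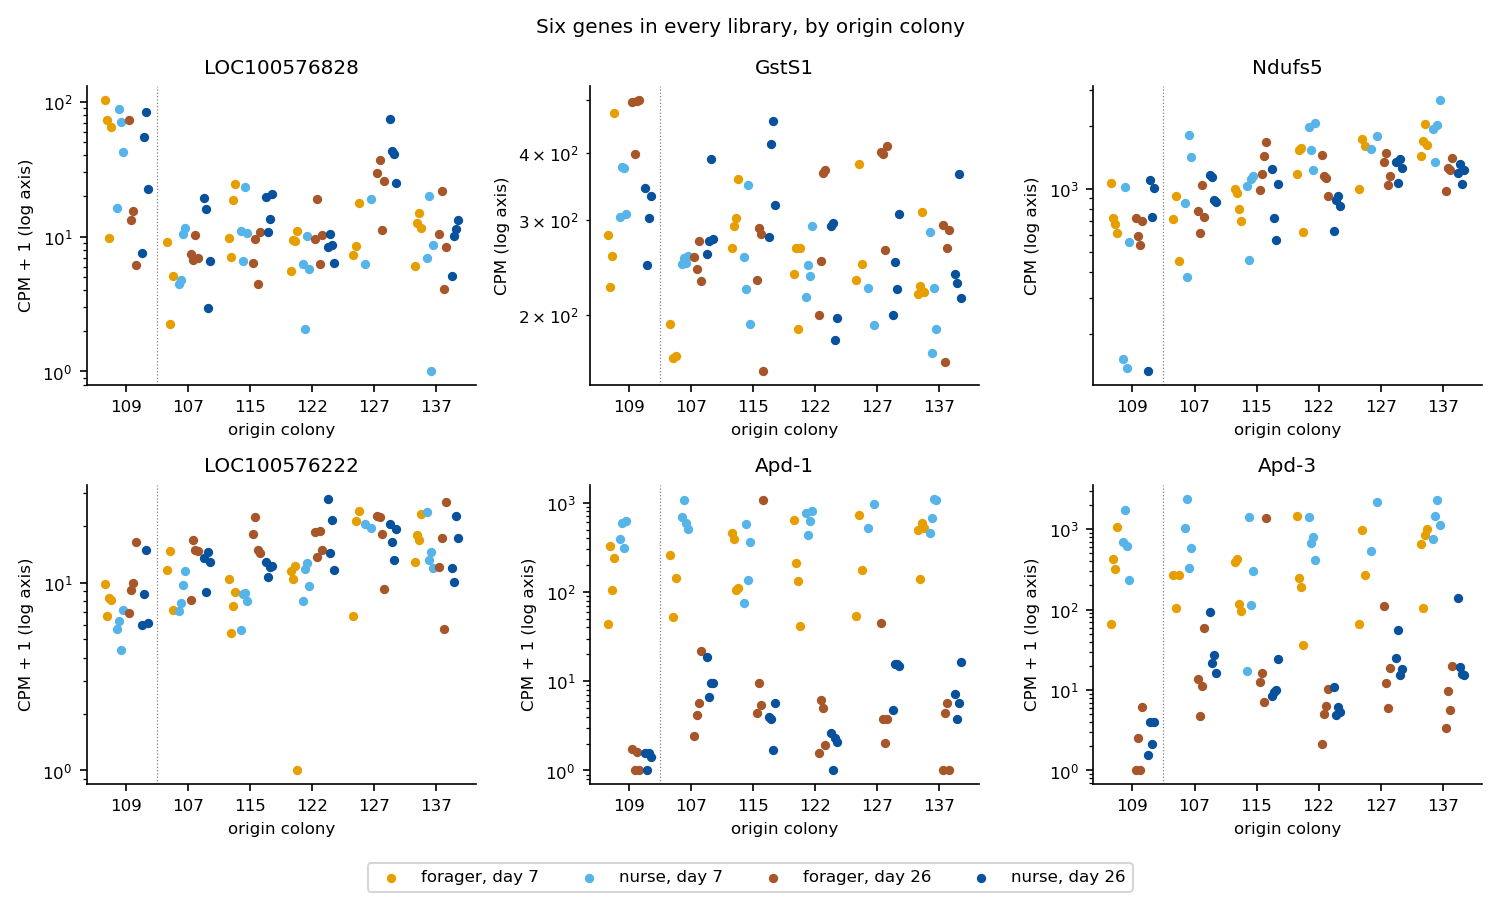
CPM of 6 genes in every library by origin colony, with 109 at the left of each plot, coloured by role and day. The axes are logarithmic, and genes with zeros are drawn as CPM + 1. LOC100576828 and GstS1 are higher in colony 109 with overlap, Ndufs5 has 3 nurse libraries of colony 109 at 132 to 152 CPM, and Apd-1 and Apd-3 lie at the low end of the day 26 libraries.

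The remaining large falls were in genes with an LOC number. LOC113218833 fell by 1.28 on the log2 scale, with an SE of 0.32 (adjusted p = 0.0167), and had means of 5.24 ± 4.66 CPM in colony 109 and 12.4 ± 7.25 CPM in the other colonies. LOC727483 had means of 39.7 ± 26.7 CPM in colony 109 and 80.0 ± 51.5 CPM in the other colonies and a log2 fold change of -1.09 ± 0.24 (adjusted p = 0.00398). The most abundant was LOC100577915, with means of 1027 ± 656 CPM in colony 109 and 1869 ± 1069 CPM in the other colonies and a log2 fold change of -0.89 ± 0.23 (adjusted p = 0.0216). LOC724917, LOC408517, LOC726471 and LOC726670 fell by 0.90 to 1.09 on the log2 scale, with means under 7 CPM in colony 109. Each of these 7 genes was lowest in colony 109 of the 6 colonies, and for each of them 1 to 6 of the 16 libraries lay below all others of their role and day. LOC727483 and LOC726471 had 1 such library each. This count was not made over all genes tested, so it only describes these genes. LOC100577915 lost its call without nurse replicate 2 at day 26 (-0.83, adjusted p = 0.0504), and LOC726471 lost it without the second library of nurses at day 7 (-0.82, adjusted p = 0.0626) or at day 26 (-0.87, adjusted p = 0.0504). Wat fell by 0.57 (adjusted p = 0.0230), with means of 28.9 ± 17.8 CPM in colony 109 and 39.5 ± 21.3 CPM in the other colonies. It lost its call without forager replicate 2 at day 7 (-0.52, adjusted p = 0.0501) or nurse replicate 3 at day 7 (-0.54, adjusted p = 0.0517). LOC100576222 had means of 7.42 ± 3.27 CPM in colony 109 and 13.1 ± 5.61 CPM in the other colonies and a log2 fold change of -0.85 ± 0.15 (adjusted p = 0.000271), and its call held in every setting tried.

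Some called genes lie beside each other in the order of genes of the RefSeq annotation of assembly Amel_HAv3.1. Of 148 called genes placed there, 14 (9.46%) had another called gene as a direct neighbour, against 291 of 6723 genes tested (4.33%) that had a called neighbour. The 14 form 7 pairs, of which 5 had the same direction. The apidermins Apd-1 and Apd-3 are such a pair. LOC100577894 (-0.82 ± 0.18, adjusted p = 0.00359) and LOC102655953 (-0.69 ± 0.17, adjusted p = 0.0106), neighbours that both fell, had their largest difference against colony 107, at -1.56 and -1.24. LOC724274 and LOC724367 both rose, and both rested on the second library of nurse replicate 3 at day 7, with 1871 and 2870 CPM, against 205 to 281 and 84.2 to 225 CPM in the other 3 libraries of that group. Without that library LOC724274 had 0.14, adjusted p = 0.537 and LOC724367 0.30, adjusted p = 0.457. LOC724274 also lost its call without replicate 1 of foragers at day 7 (0.44, adjusted p = 0.0615) or day 26 (0.45, adjusted p = 0.0577) or the second library of nurses at day 26 (0.45, adjusted p = 0.0569). A pair of opposite direction was LOC100576222, above, and Pban, which encodes the precursor of pheromone biosynthesis activating neuropeptide. Pban was at 28.2, 30.3, 106 and 41.9 CPM in nurses of colony 109 at day 7, against 0.964 to 45.8 (median 6.92) CPM in the others. Day 26 foragers of colony 109 had 53.0, 31.8, 43.9 and 62.0 CPM, against 0.981 to 35.5 (median 6.98) CPM, and day 26 nurses had 35.3, 30.3, 37.7 and 43.1 CPM, against 0.936 to 61.4 (median 10.6) CPM. In these 3 groups all 12 libraries of colony 109 lay above the median of the others. Day 7 foragers of colony 109 had 18.6, 20.3, 11.6 and 27.2 CPM, against 0 to 50.2 (median 29.4) CPM, all 4 below the median of the others. Against single colonies Pban passed for 107 (2.00, adjusted p = 0.0126) and 137 (1.54, adjusted p = 0.0483). It did not pass for 115 (1.29, adjusted p = 0.237), 122 (0.67, adjusted p = 0.548) or 127 (1.08, adjusted p = 0.261). The log2 fold change of Pban over the 4 groups was 1.31 ± 0.34 (adjusted p = 0.0215), and its value in foragers at day 7 was -0.13. Without nurse replicate 3 at day 7, the library with 106 CPM, the change was 1.16, adjusted p = 0.0710, and Pban lost its call in 6 of 35 settings. The genes named for their neighbours were chosen after their values had been seen.

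Within the single groups fewer genes passed, apart from foragers at day 26. Colony 109 differed from the others in 7 genes in foragers at day 7 (0.104%), 29 in nurses at day 7 (0.429%), 178 in foragers at day 26 (2.64%) and 6 in nurses at day 26 (0.0888%). Single libraries of colony 109 moved these counts. Without nurse replicate 3 at day 7, the library low in Lop1 and Mrjp1, 7 genes passed in nurses at day 7. In that group 18 passed without the second library and 62 without replicate 1. Without replicate 1 or without replicate 2 of foragers at day 7, 4 genes passed in that group. Among foragers at day 26, 123 genes were higher (1.82%) and 55 lower (0.814%) in colony 109. Without replicate 3 of that group 106 genes passed. Most of the calls rested on its second library, the shallow one with 78.6% of reads not aligned. Without that library 1 gene passed in that group, LOC113218735 (-4.41, adjusted p = 8.45e-07). Dnmt3, the de novo DNA methyltransferase, was at 32.4, 30.8, 65.6 and 219.7 CPM in foragers of colony 109 at day 26, against 10.8 to 42.5 (median 29.2) CPM in the other colonies. Replicate 3 and its second library lay above all others, and replicates 1 and 2 lay inside their range. Its log2 fold change in this group was 1.57 ± 0.25 (adjusted p = 1.42e-05) with the second library and 0.63, adjusted p = 0.498 without it. LOC410449 showed the same pattern, with 335, 656, 644 and 4423 CPM in colony 109, against 172 to 887 (median 323) CPM in the others. LOC411748 had 2.94, 13.8, 11.4 and 173 CPM in colony 109, against 0.981 to 10.2 (median 4.09) CPM. GstS1 differed from these genes: its second library (501 CPM) lay beside replicates 1 and 3 (497 and 498 CPM), with replicate 2 lower at 398 CPM, its log2 fold change in foragers at day 26 was 0.76 ± 0.15 with the second library and 0.74 without it, and its adjusted p was 0.000582 with it and 0.111 without it. Dnmt3, LOC410449, LOC411748 and the other genes drawn for this group were chosen after their values had been seen.

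**Figure D5:**
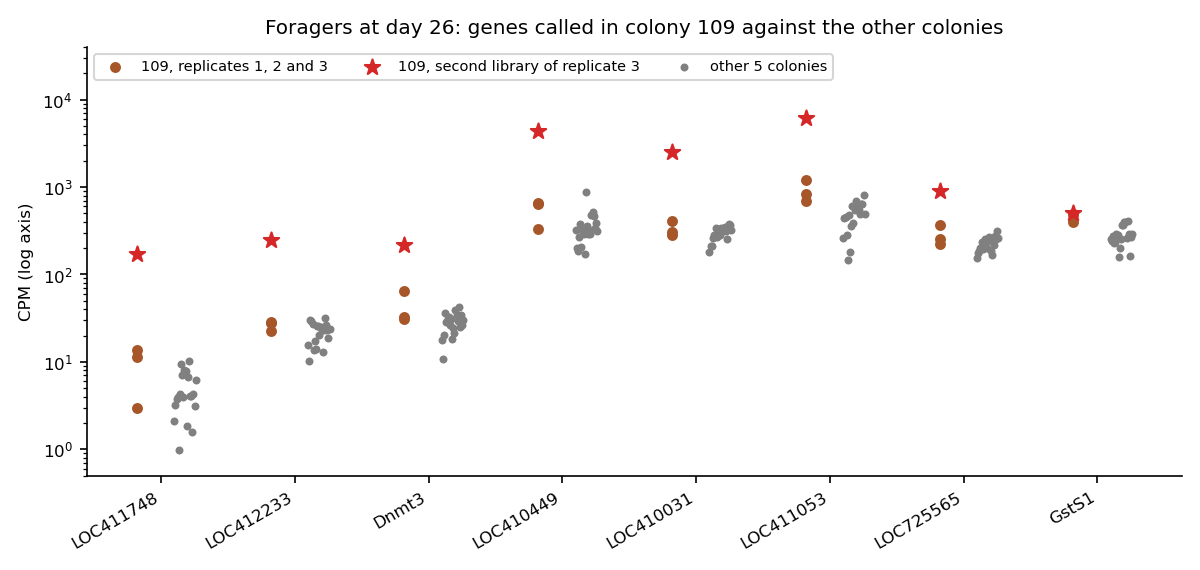
CPM on a log axis of 8 genes called in foragers at day 26, with colony 109 at the left of each gene (brown points for replicates 1, 2 and 3, red star for the second library of replicate 3) and the 20 libraries of the other colonies in grey. The star is the highest value of every gene drawn, from 173 CPM for LOC411748 to 6160 CPM for LOC411053, and only for GstS1 do 2 of the brown points, replicates 1 and 3, lie beside it.

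Whether the difference of colony 109 depended on role or on day was tested as an interaction. No gene (0%) passed for role by edgeR's quasi-likelihood test, with 390 genes at an unadjusted p under 0.05 and 0 called by DESeq2. The smallest p was that of LOC412381, whose interaction was 0.67 on the log2 scale (adjusted p = 0.141). For day, 20 genes passed (0.296%), 11 with a higher value of colony 109 over the others at day 26 than at day 7 (0.163%) and 9 with a lower one (0.133%). LOC410078 was at 91.9, 109.7, 44.5 and 51.7 CPM in foragers and 40.2, 72.6, 58.0 and 53.3 CPM in nurses of colony 109 at day 26. The other colonies had 77.6 to 205 (median 138) and 77.5 to 191 (median 135) CPM, and the nurse groups did not overlap. At day 7 it was at 59.4, 139.6, 196 and 181 CPM in foragers and 81.8, 60.5, 109 and 126 CPM in nurses of colony 109, with 1 forager library below and 2 above the range of the others (73.2 to 155 (median 117) CPM in foragers and 53.8 to 169 (median 116) CPM in nurses). Its change with day differed from that of the other colonies by -1.01 (adjusted p = 0.0204). The day interaction was 0.77 for LOC411396, 0.64 for LOC408561, 0.57 for LOC725782 and -0.90 for LOC725747, each with an adjusted p of 0.0197 or 0.0204. The counts of both interactions moved with single libraries of colony 109. No gene passed the day interaction without the shallow forager library at day 26, and 0 passed without nurse replicate 3 at day 26. Without forager replicates 1, 2 and 3 at day 7, each left out alone, 1, 32 and 10 genes passed for day, and 35, 11 and 13 passed without nurse replicates 1, 2 and 3 at day 7. At day 26, 49 passed without forager replicate 1, 5 without forager replicate 3, 13 without nurse replicate 2 and 31 without the second nurse library. For role, 1 gene passed without nurse replicate 3 at day 7, 5 without forager replicate 2 at day 26 and 2 without forager replicate 3 at day 26.

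No royal jelly protein, vitellogenin or nicotinic receptor gene passed between colony 109 and the others over the 4 groups. Vitellogenin (Vg), a yolk protein of the fat body, was at 4269, 1257, 931 and 2331 CPM in nurses of colony 109 at day 7, against 109 to 7928 (median 1133) CPM in the others, and at 503, 595, 474 and 417 CPM in nurses at day 26, against 73.8 to 5373 (median 926) CPM. The groups overlapped, and the log2 fold change over the 4 groups was -0.46 ± 0.39 (adjusted p = 0.598). Mrjp1, the main royal jelly protein, was at 4419.6, 4199.9, 27478 and 22498 CPM in foragers of colony 109 at day 7, against 205 to 24276 (median 2384) CPM in the others. At day 26 foragers of colony 109 had 1197, 1717, 1509 and 5118 CPM, against 1037 to 68351 (median 3233) CPM. Nurses ranged from 2935 to 103440.0 CPM at day 7 and from 30471 to 107536 CPM at day 26 in colony 109, against 1112 to 102331 and 927 to 137117 CPM in the others. Log2 fold changes of Mrjp1 were 2.27 in foragers at day 7 (adjusted p = 0.222) and -1.62 in foragers at day 26 (adjusted p = 0.339), with a day interaction of -2.06 (unadjusted p = 0.00853, adjusted p = 0.223). Over the 4 groups it was 0.23 ± 0.36 (adjusted p = 0.817), and none of the 9 royal jelly protein genes passed. The 4 nicotinic acetylcholine receptor subunits that were tested, the family that imidacloprid acts on, had log2 fold changes of -0.20 ± 0.24 (nAChRa6), 0.15 ± 0.098 (nAChRa8), -0.19 ± 0.13 (nAChRa9) and 0.045 ± 0.17 (nAChRb2), and none passed. For the sex determination genes the values were -0.017 ± 0.19 for Csd, the complementary sex determiner, -0.14 ± 0.074 for Fem and 0.21 ± 0.094 for Dsx. No member passed on the lists of yolk and storage proteins (7 tested), odorant-binding and chemosensory proteins (23), venom (5), immune genes (7), opsins (3), muscle (7), antioxidants (7), heat shock proteins (4), ribosomal proteins (7), endocrine genes (6), other neuronal genes (9), sugar processing enzymes (3) or clock genes (2). The median log2 fold changes of these lists lay between -0.23 and 0.13, against 0.0065 over all genes tested. Of all 247 genes tested that carry a name other than an LOC number, 12 passed (4.86%), against 2.28% of all genes tested. Of these 12, 5 were the mitochondrially encoded genes already described. A p that missed the threshold does not show that colony 109 was like the others in these genes.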

How the data were processed

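The deposited values are counts, whole numbers of reads per gene with no normalization, in 9935 genes and 93 libraries. The authors used FastQC, HISAT2, SAMtools and DESeq2, per the submitters' processing notes, which name no version. How reads were aligned and counted, and on which build and annotation, is not given in the sources used here. No coordinates or sequences are therefore printed. On average 87.2% of reads were assigned to no gene, 67.7% because they did not align, and these stayed out of totals and tests. Reads that aligned to more than 1 place (3.36%) were not assigned, which can lower genes with close copies. Whether the counting used strand is not given. The labels list 96 samples; those without a column were not analysed here. Replicate 1 of the foragers from colony 107 at day 7 (81736 counts, 6.35% of the median), was left out. Libraries with the mark #2 were treated as separate, which the labels leave unstated. In chi-square per gene, where sampling noise alone gives about 1, the 4 same-numbered pairs of colony 109 differed by 9.62 to 84.7 and none was the most alike pair of its group. The 19 same-numbered pairs of the other colonies differed by 2.03 to 60.9, and 7 were the most alike of their group, 1 of these in a group of 2 libraries.

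The function filterByExpr (minimum count 10, grouped by role and day) kept 6753 of 9935 genes. The model, in edgeR 4.0.16 under R 4.3.3 with TMM scaling (glmQLFit, legacy=FALSE, robust=TRUE), had a mean for every combination of colony, role and day, 24 in all, which left 68 residual degrees of freedom. The contrast was the mean of colony 109 minus the mean of the other 5 colonies within each group of role and day, averaged over the 4 groups. P-values were adjusted by Benjamini-Hochberg over the 6753 genes and called under 0.05, and log2 fold changes come with their SE. CPM values use the TMM-scaled library size. Library measures were compared by two-sided permutation tests with 100000 resamples. The nearest colony of a library was the one whose median profile over the 13 mitochondrially encoded genes (log2 of CPM + 1, centred within the library, libraries of the same day, itself left out) was closest.

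Colony 109, the gene lists and the rules were chosen with earlier results of these data known, and 2 genes were taken off lists whose word patterns they had met (Cryl1 from the clock list, Apid1 from the venom list). Named genes are those called with a mean CPM of at least 5 and the same sign in the 4 groups. The 10 with the largest rise and the 10 with the largest fall were taken, and the same was done for up to 8 genes each way with a name other than an LOC number. To these were added up to 3 called members of each list, the always named genes (Vg, Mrjp1, nicotinic receptor subunits, mitochondrial genes, sex determination) and the genes with the smallest interaction p. Apid1 is on the immune list. Gene names came from the table, and 9933 of 9935 were found in the RefSeq table of assembly Amel_HAv3.1, 13 of them by locus tag. Replicate numbers did not pair libraries: deviations of same-numbered libraries correlated by a mean of 0.00053 (1362 pairs), against -0.00017 for different numbers (2691 pairs). Alternatives were other scalings, filters, models, DESeq2 1.42.0, a replicate block and leaving out libraries or colonies. The script was tested on simulated counts.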

Additional observations from a re-analysis of the deposited data

Results flagged for a closer look

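A library was marked where, among the 4 of its role and day in colony 109, its gap to the nearest other library, as a share of the whole range, was above Dixon's critical value for 4 samples. Chance marks about 1 group in 20. Of 252 groups tested 28 were marked. Genes of the same libraries are not independent, and some genes were added after their values had been seen, so this count cannot be set against chance.

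In foragers at day 26, 7 marks fell on the second library of replicate 3. They were LOC411053 at 6159.8 CPM, LOC410449 at 4423 CPM, LOC410031 at 2541 CPM, LOC412233 at 246 CPM, LOC411748 at 173 CPM, Mrjp1 at 5118 CPM and the share of reads not aligned at 78.6%. Each was the highest of its group. In the same group LOC100576828 (72.1 CPM) and LOC100577894 (81.6 CPM) were high in replicate 1, LOC724367 was high in replicate 2 (119.9 CPM), and GstS1 was low in replicate 2 (398 CPM).

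In foragers at day 7, replicate 3 was far above the others for LOC113218735 (5184 CPM, against 228 to 389 CPM) and far below them for ATP6 (2644 CPM) and COX1 (17827 CPM). Replicate 1 was high for LOC107963967 (392 CPM) and COX3 (6017 CPM) and low for LOC725782 (307 CPM). The second library of replicate 3 was high for LOC411748 (20.2 CPM).

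Among nurses at day 7, the second library of replicate 3 was high for the neighbours LOC724274 (1871 CPM) and LOC724367 (2870.4 CPM) and low for LOC725747 (31.0 CPM), and replicate 2 was high for LOC552536 (255 CPM), a gene chosen after its values had been seen. Among nurses at day 26, replicate 2 was high for ND4 (7605 CPM), CYTB (2078 CPM), ND6 (2613 CPM) and LOC113218735 (153 CPM), and replicate 3 was high for nAChRb2 (61.5 CPM) and for the share of reads not aligned (68.9%).

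The difference of colony 109 from the others itself differed between days, by an interaction term, for LOC411396 (0.77 on the log2 scale), LOC408561 (0.64), LOC725782 (0.57), LOC725747 (-0.90) and LOC410078 (-1.01). None of these passed without the second library of forager replicate 3 at day 26.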

How the results depend on the processing

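The call of LOC113218735, COX2, LOC100576828, LOC100576222 and LOC113218812 held in all 35 settings, and 62 genes were called in each of the 16 fits without 1 library of colony 109. The replicate block gave 129 calls (121 shared) against 154, moved no count of calls by over 1.5 times and ended the calls of Apd-3 (-1.72, adjusted p = 0.0935), LOC107963967 (1.29, adjusted p = 0.0629), LOC724565 (0.76, adjusted p = 0.0894) and LOC410031 (0.34, adjusted p = 0.0874). Other scalings and tools gave 157 (DESeq2 size factors), 128 (no filter), 163 (share not aligned as a term), 140 (low library kept), 123 (additive model) and 162 calls (DESeq2 Wald test, with 40 day interactions). With no filter 111 genes passed in foragers at day 26 and 10 in nurses at day 26. Without the second libraries 35 passed, 23 higher and 12 lower, with 2 day interactions and 4, 7, 1 and 3 in foragers at day 7, nurses at day 7, foragers at day 26 and nurses at day 26. Counts summed per group gave 32, 11 higher and 21 lower. The fits with fewer samples have less power by construction. The causes of the other shifts were not tested.

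Leaving out 1 library of colony 109 or all libraries of 1 replicate number gave 17 to 185 calls, 12 to 86 higher and 5 to 107 lower. The low ends come from leaving out replicate 3 in all colonies, which in colony 109 also takes out the second library of each group. Without the shallow forager library at day 26, 46 genes were higher. The ranges were 0 to 5 role interactions, 0 to 51 day interactions, and 0 to 7, 1 to 62, 1 to 220 and 2 to 8 calls in foragers at day 7, nurses at day 7, foragers at day 26 and nurses at day 26. Without the second library of nurse replicate 3, 18 genes passed in nurses at day 7 (day 7 library) and 31 day interactions passed (day 26 library). Log2 fold changes that were not called turned sign within -0.19 to 0.22 (nAChRb2), -0.024 to 0.19 (COX1), -0.025 to 0.14 (ND2), -0.23 to 0.20 (Csd, with 0.057 and 0.018 without the second libraries of foragers at day 7 and of nurses at day 26) and -0.093 to 0.38 (Mrjp1).

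Without colony 107, 10 day interactions and 112 genes in foragers at day 26 passed, with ND2 at -0.097 and Csd at 0.091. Without colony 115 there were 32 day interactions and 3 calls in foragers at day 7, with ND1 at -0.0048, ND4L at -0.14, COX3 at -0.45 and COX1 at -0.029. Without colony 122 there were 9 day interactions and 10 calls in nurses at day 26, with nAChRb2 at -0.032. Without colony 127, 2 genes passed in foragers and 17 in nurses at day 7, with Mrjp1 at -0.059 and Csd at 0.0038. Without colony 137 there were 6 day interactions and 14 calls in nurses at day 7. COX3 was at -0.030 in the additive model. Chosen after seeing the data, leaving out the 4 libraries of colonies 109 and 115 with another mitochondrial profile gave 156 calls, 1 role and 11 day interactions, 14 calls in foragers at day 7 and 13 in nurses at day 26, with Csd at 0.0080. Values of the mitochondrial genes are not given there, because these genes chose the libraries. Leaving out the 2 libraries of colony 109 that stand apart gave 0 day interactions and 1 call in foragers at day 26, with Mrjp1 at -0.068.

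Depth limits most the genes of a few CPM, since the median library held 1288440.5 counts on genes.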
